A study of Caenorhabditis elegans with 4 samples.

Results

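The dhs, alh and sodh genes of the nematode Caenorhabditis elegans encode dehydrogenases that move electrons between an alcohol or aldehyde group and a nicotinamide coenzyme. Members were found by name, as every locus in the authors' deposited table with a gene name that starts with dhs-, alh- or sodh-. This gave 41 of 16562 loci, with 29 in the dhs family (short-chain dehydrogenases), 11 in the alh family (aldehyde dehydrogenases) and 1 alcohol dehydrogenase, sodh-1. Wild-type (WT) worms at L4, the last larval stage, were grown at 20 °C on the bacterial strain OP50. The control group held 2 samples of whole worms, which the series calls untreated, and the NO group held 2 samples given 1 mM MAHMA NONOate, a compound that releases nitric oxide (NO) in water, followed by 4 h of recovery. The same protocol text stands under both groups, so it does not say whether control worms went through the same handling. The deposited table gives 1 value per condition, read as FPKM (fragments normalised to transcript length and sequencing depth), with no value for a single sample. Spread between samples and library depth are therefore unknown, and each standard error (SE) is the one implied by the authors' test statistic.

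Short-chain dehydrogenases are a large superfamily that acts on steroids, retinoids, fatty acyl chains and sugars. Aldehyde dehydrogenases oxidise reactive aldehydes to acids, and several of them catalyse fixed steps in the breakdown of amino acids or in folate metabolism. Alcohol dehydrogenases, the group of sodh-1, interconvert alcohols and aldehydes. One relative outside the 3 families, adh-5, belongs to the class of alcohol dehydrogenase that also reduces S-nitrosoglutathione, a carrier of NO in cells. Whole worms were extracted, so fewer cells of a type and less RNA per cell cannot be told apart. No protein or promoter sequence of these genes was used here.

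No member of the 3 families passed the authors' test. Of the 41 loci, 0 were called at an adjusted p of 0.05 in the authors' deposited table, in either direction, where 0.399% of all loci were called. At an unadjusted p under 0.05 the count was also 0 of 41, against 3.09% of all loci, and the lowest unadjusted p of a member was 0.0626, for dhs-25. A share of 0.399% would put less than 1 call among 41 loci, so the absence of calls does not set the members apart. Values were higher in NO for 17 members and lower for 24. The lower share was 58.5% of members, and 54.3% of those in loci of 1 gene, beside 51.0% of all loci and 53.7% of loci whose mean reached 1 FPKM. The log2 ratio of NO over control, computed with 1 FPKM added to both values, had a median of -0.07 in the dhs family and -0.12 in the alh family, beside -0.03 over all 14285 loci whose mean reached 1 FPKM. This median depends on abundance, being 0.11 over kept loci under 10 FPKM, -0.08 at 10 to 100 FPKM and -0.14 at 100 FPKM and above, and members are more abundant than most loci. Centred within abundance bins the alh median was 0.011 and the dhs median -0.05, and without loci that join several genes they were -0.02 and -0.01. The middle 50% of such ratios ran from -0.23 to 0.07 in the dhs family, from -0.17 to 0.01 in the alh family and from -0.20 to 0.27 over all loci kept.

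**Figure D1:**
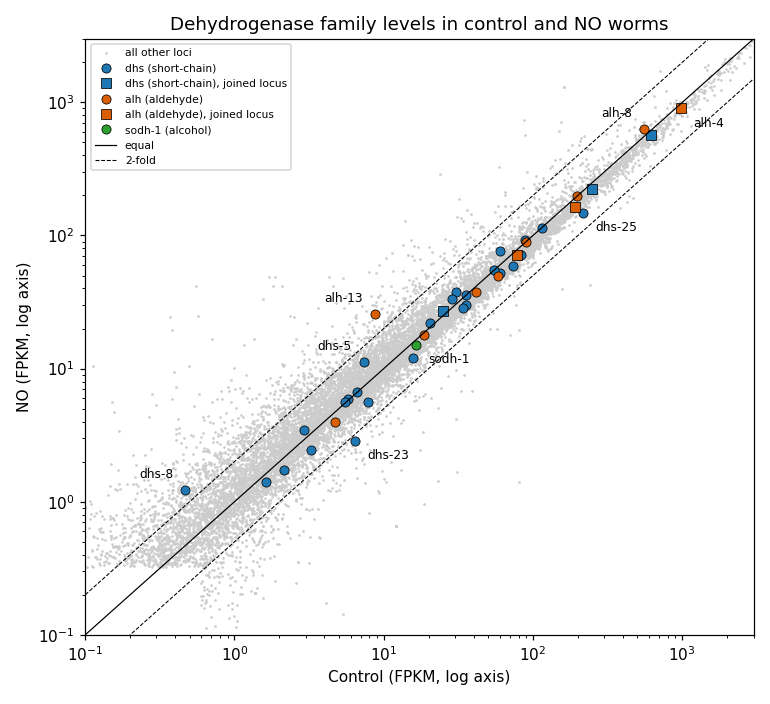
Control level on the x axis and NO level on the y axis for each family member and all other loci, in FPKM on log axes, with lines for equal values and for a 2-fold difference. Squares are loci that join several genes. Members lie along the line of equal values except alh-13 and dhs-8 above the upper 2-fold line and dhs-23 below the lower one.

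Most members had nearly the same deposited level in both conditions. The deposited fold was within 1.2-fold of no difference for 29 of 41 members, or 70.7%, compared with 51.7% of the 15621 loci above 0 in both conditions. Members were more abundant than most loci, with a median control level of 34.08 FPKM per the authors' deposited table against 8.997 FPKM over all loci, and abundant loci had smaller folds. Among members of 10 to 100 FPKM, 76.2% were within 1.2-fold, beside 63.3% of all loci in that range. Among members of 100 FPKM and above it was 87.5% beside 68.96%, and below 10 FPKM it was 6 of 12 members, 1 of which lay under 1 FPKM, beside 41.8% of loci with a mean of at least 1. These shares describe the loci and were not tested. Only 3 of 41 members, dhs-8, dhs-23 and alh-13, had a deposited fold beyond 2, which is 7.32% of them and 10.8% of the 15621 loci.

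**Figure D2:**
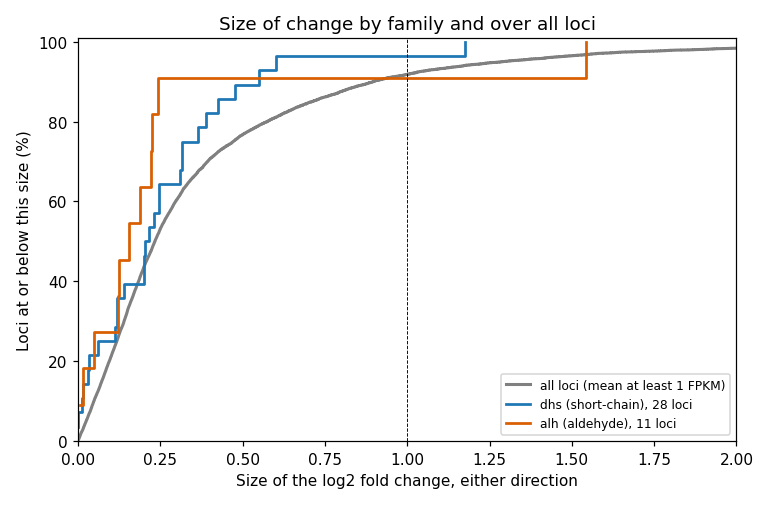
Cumulative share of loci (y axis, percent) by the size of the deposited log2 fold in either direction (x axis), for 28 dhs loci, 11 alh loci and all loci above 0 whose mean reached 1 FPKM. The curves of both families lie above that of all loci over most of the range from 0.25 to 0.75, and the alh curve ends in the 1 large value of alh-13.

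The precision of the table differed between the families, and with it what a missing call can say. The median implied SE of the log2 fold was 0.38 in the alh family, 0.51 in the dhs family and 0.57 over all 15621 loci above 0 in both conditions. A 95% interval from that SE lay wholly inside a 2-fold change either way for 9 of 11 alh loci, 7 of 29 dhs loci and sodh-1, which makes 41.5% of the members, compared with 24.05% of all loci and 27.3% of those whose mean reached 1 FPKM. At 10 to 100 FPKM it was 47.6% of members beside 38.7% of loci, and at 100 FPKM and above 87.5% beside 65.8%. Below 10 FPKM 0 of 12 members had such an interval, beside 2.46% of kept loci. For those 17 loci a change of 2-fold or more lies outside the interval. For the other 24 members it lies inside. Some of the 17 loci join several genes, and there the interval holds for the joined value and not for the member alone. Among loci of 1 gene it lay inside 2-fold for 12 of 35 members (34.3%), with 6 of 8 alh loci and 5 of 26 dhs loci. Of the 8 members at 100 FPKM and above, 4 stood in joined loci. The shares of all loci include joined ones too. A locus needed a test statistic of about 3.75 in size, of either sign, to be called. For the median member this amounts to a 3.42-fold change, and it ranges from 2.07-fold for alh-8 to 21.2-fold for dhs-17.

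**Figure D3:**
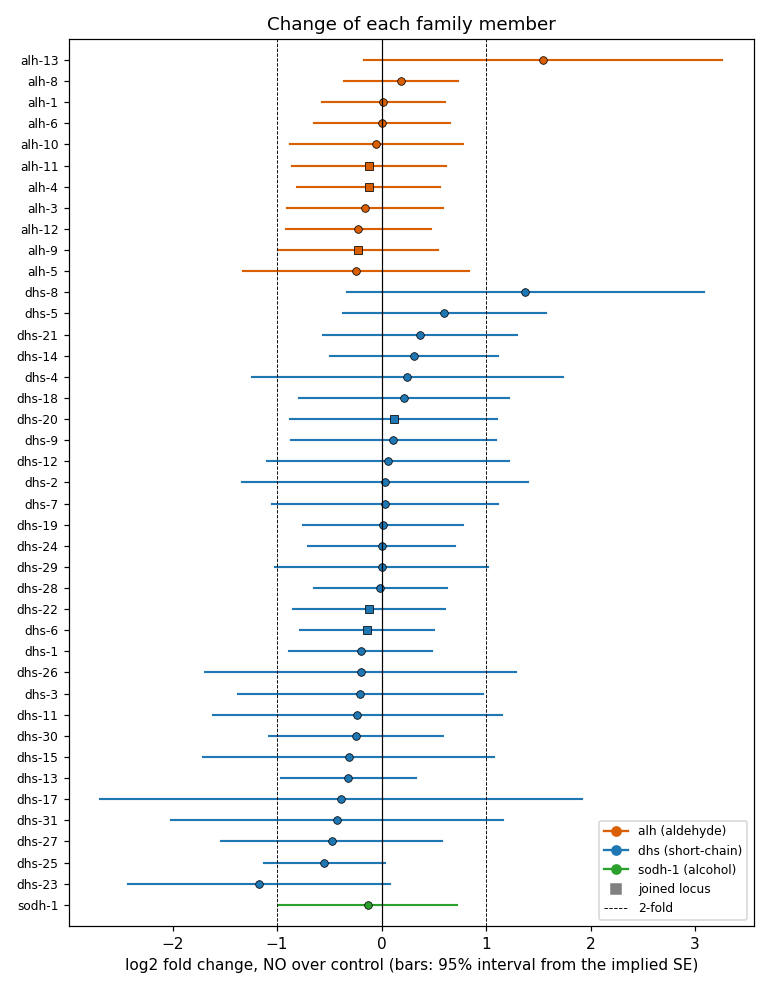
Deposited log2 fold change of NO over control (x axis) for each of the 41 members (rows), with bars for the 95% interval from the implied SE and dashed lines at a 2-fold change. Every bar crosses 0, and the widest ones belong to dhs-17, dhs-8 and alh-13.

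alh-13 had the largest deposited fold of the members. It encodes the worm's probable pyrroline-5-carboxylate synthase, which makes the precursor of proline from glutamate. The deposited table gives 8.77 FPKM for control and 25.6 FPKM for NO, a 2.92-fold difference that was not called (log2 fold 1.54, SE 0.88, unadjusted p = 0.0779, adjusted p = 0.99994 in the authors' test). That SE is large for the level of the gene, and its 95% interval ran from 0.89-fold to 9.59-fold. alh-6 encodes the mitochondrial enzyme of the opposite direction, which oxidises pyrroline-5-carboxylate to glutamate when proline is broken down. For alh-6 the authors' deposited table lists 89.2 and 89.5 FPKM, a log2 fold of 0.0048 with an SE of 0.33.

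The other proline and ornithine genes, taken from a fixed list of 5, gave 0 calls, beside 0.399% of all loci. pycr-1 (listed as M153.1), which encodes a pyrroline-5-carboxylate reductase, the last enzyme of proline synthesis, had deposited values of 6.29 and 18.9 FPKM. Its log2 fold of 1.59 (SE 0.49) had an unadjusted p of 0.00120 and an adjusted p of 0.173 in the authors' test. The other 4 had lower values in NO. The second reductase gene, pycr-4, was listed at 43.02 and 39.9 FPKM per the authors' deposited table, and the proline dehydrogenase gene prdh-1, in a locus joined with small RNA genes, at 35.2 and 27.7 FPKM. The ornithine aminotransferase gene oatr-1, the most abundant of the list, stood at 236 and 232 FPKM, and the arginase gene argn-1 in its joined locus at 83.7 and 76.98 FPKM per that same deposited table. alh-13 and pycr-1 were the only genes of this group, which holds alh-6 and alh-13 with the 5 listed genes, whose deposited fold exceeded 2, and neither was called.

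alh-8, the methylmalonate-semialdehyde dehydrogenase gene that closes the propionate shunt, was the most abundant member with a locus of its own. The authors' deposited table lists it at 554 FPKM in control and 631 FPKM in NO (log2 fold 0.19, SE 0.28, unadjusted p = 0.504), and its 95% interval of 0.78-fold to 1.66-fold was the narrowest of the members. Of 16 loci of the propionate shunt and of branched-chain amino acid breakdown, 0 were called, beside 0.399% of all loci. Of the 16, 3 had higher and 13 had lower deposited values in NO, and the median log2 ratio was -0.16. These loci are abundant, with a median control level of 139 FPKM. Among all loci of 100 FPKM and above, 76.6% were lower in NO and the median was -0.14, so the list is near that background. The first gene of the shunt, acdh-1, stood in a joined locus at 1738 and 1730 FPKM per the authors' deposited table. hach-1, a later enzyme of the same route, shared its locus with the myosin light chain gene mlc-3, at 1564 and 1601 FPKM, so that value cannot be read as hach-1 alone. alh-9, whose product is the homolog of human ALDH7A1 of lysine breakdown, had deposited values of 192 and 164 FPKM in a locus joined with dpf-4 (log2 fold -0.23, SE 0.39).

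**Figure D4:**
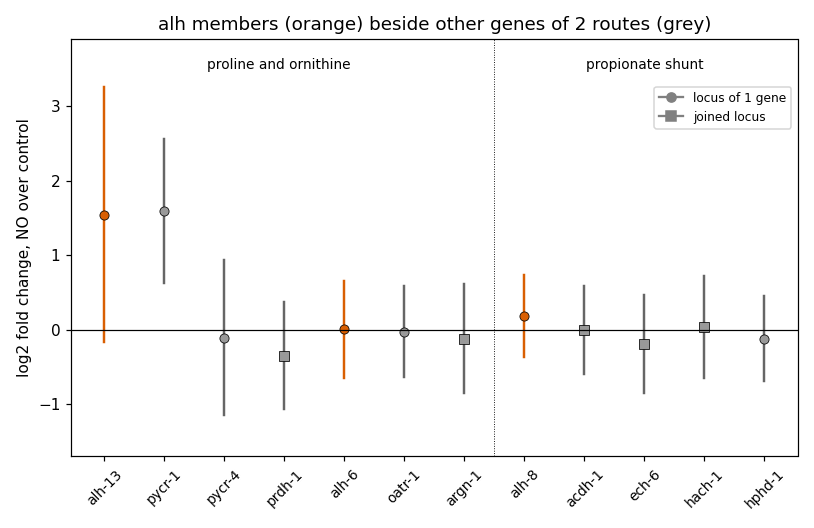
Deposited log2 fold change of NO over control (y axis) with 95% intervals from the implied SE, for alh-13, alh-6 and alh-8 in orange and for other genes of the proline and ornithine list and of the propionate shunt in grey. The intervals of alh-13 and of the genes from pycr-4 to hphd-1 cross 0, and that of pycr-1 does not, although pycr-1 was not called over all loci.

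The remaining aldehyde dehydrogenases lay within 1.2-fold of their control level. alh-1, related to mitochondrial ALDH2 of mammals, which clears acetaldehyde, was listed at 197 and 199 FPKM per the authors' deposited table (log2 fold 0.02, SE 0.30). alh-3, related to the 10-formyltetrahydrofolate dehydrogenases of folate metabolism, had deposited values of 41.7 and 37.4 FPKM. alh-4, related to the fatty aldehyde dehydrogenases, had the highest value of any member, 982 and 900 FPKM per the authors' deposited table, but its locus joins atp-4, an ATP synthase subunit gene, so the share of alh-4 in it is unknown. alh-10, alh-11 and alh-12 had deposited control levels of 18.6, 77.6 and 58.2 FPKM and NO levels of 18.0, 71.4 and 49.9 FPKM, in that order, and alh-11 shares its locus with F42G9.6. The least abundant of the family was alh-5, at 4.68 and 3.96 FPKM per the authors' deposited table, where the interval from 0.40-fold to 1.79-fold is wide.

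Short-chain dehydrogenases spanned a wider range of levels and held the 2 lowest unadjusted p-values of the members. dhs-25, the ortholog of human HSD17B8, had deposited values of 218 FPKM in control and 149 FPKM in NO. Its log2 fold of -0.55 (SE 0.30) had an unadjusted p of 0.0626 and an adjusted p of 0.99994 in the authors' test, and the 95% interval ran from 0.46-fold to 1.02-fold. dhs-23 was listed at 6.44 and 2.85 FPKM per the authors' deposited table, the largest difference toward lower values, with a log2 fold of -1.18 (SE 0.64, unadjusted p = 0.0660). dhs-8 had the lowest level of any member, 0.469 FPKM in control and 1.22 FPKM in NO in the deposited table, and its 2.595-fold difference carried an SE of 0.87 on the log2 scale (unadjusted p = 0.115). The next largest higher value was that of dhs-5, at 7.37 and 11.2 FPKM per the authors' deposited table (log2 fold 0.60, SE 0.49, unadjusted p = 0.223). These 4 loci had the largest folds of the family, and all 4 intervals included no difference.

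dhs-28 encodes the dehydrogenase of peroxisomal beta-oxidation that shortens the side chains of ascarosides, the worm's pheromones, and its deposited values were 115.3 and 114 FPKM (log2 fold -0.01, SE 0.32). Around it, maoc-1 and daf-22, which encode the enzymes acting before and after DHS-28 in the same cycle, were listed at 73.9 and 73.5 FPKM and at 57.06 and 55.4 FPKM per the authors' deposited table. Beside a share of 0.399% over all loci, 1 of 12 loci of peroxisomal beta-oxidation and ascaroside genes was called. It was the peroxisomal catalase gene ctl-2, which rose from 40.2 to 124 FPKM per the authors' deposited table (adjusted p = 0.00472 in the authors' test, log2 fold 1.62, SE 0.37). lbp-8, a lysosomal fatty acid binding protein gene, had deposited values of 4.57 and 1.47 FPKM (unadjusted p = 0.0322, adjusted p = 0.99994 in the authors' test). The median log2 ratio of these 12 loci was -0.0044.

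dhs-3 encodes a protein of intestinal lipid droplets and is used as their marker. The authors' deposited table lists it at 82.8 and 71.9 FPKM, with a log2 fold of -0.20 and an SE of 0.60 that leaves a 95% interval of 0.39-fold to 1.96-fold. A list of 10 other loci was tied to lipid droplets and fat storage, and not only to proteins of the droplet itself. Of these loci 0 were called, beside 0.399% of all loci, and their median log2 ratio was -0.06. The 2 most abundant were the yolk protein gene vit-2, at 3032 and 2370 FPKM, and fitm-2, at 92.6 and 84.4 FPKM per the authors' deposited table. dhs-21, the dicarbonyl and L-xylulose reductase gene, had a value 1.29-fold higher in NO, from 59.8 to 77.1 FPKM per the authors' deposited table (log2 fold 0.37, SE 0.47). dhs-6, joined with C17G10.9, stood at 248 and 225 FPKM, and dhs-22, in a locus with the proteasome gene pas-1, at 619 and 570 FPKM per that same deposited table.

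The other 20 dhs genes had levels on both sides of 10 FPKM. dhs-24, dhs-19, dhs-29, dhs-7 and dhs-2 had deposited log2 folds of 0.00064, 0.01, -0.0011, 0.03 and 0.03, with SEs from 0.36 for dhs-24 to 0.70 for dhs-2. dhs-12, dhs-9, dhs-20, dhs-18, dhs-4 and dhs-14 had higher deposited values in NO, by 1.04-fold for dhs-12, at 87.9 and 91.7 FPKM, up to 1.24-fold for dhs-14, at 30.4 and 37.7 FPKM. Lower deposited values were listed for dhs-1, dhs-26, dhs-11, dhs-30, dhs-15, dhs-13, dhs-17, dhs-31 and dhs-27. Of these, dhs-1 and dhs-13 were the most abundant, at 59.9 and 52.2 FPKM and at 73.8 and 59.2 FPKM per the authors' deposited table. dhs-27 had the lowest ratio of the 9, 0.72, at 7.82 and 5.62 FPKM. dhs-17 had the largest SE of the members, and its deposited levels of 15.7 and 11.97 FPKM came with an SE of 1.18 on the log2 scale and a 95% interval from 0.15-fold to 3.78-fold.

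The alcohol dehydrogenase gene sodh-1 (sequence name K12G11.3, adh-1 in the current reference) takes part in ethanol metabolism. The deposited table gives 16.5 FPKM for control and 15.1 FPKM for NO (log2 fold -0.13, SE 0.44, unadjusted p = 0.767), and the 95% interval of 0.51-fold to 1.65-fold lay inside a 2-fold change. adh-5 (listed as H24K24.3), of the S-nitrosoglutathione reductase class, was more abundant, at 94.5 and 90.7 FPKM per the authors' deposited table (log2 fold -0.06, SE 0.35). Its interval, from -0.75 to 0.63 on the log2 scale, also lay inside 2-fold. In the list of 20 loci for other enzymes of alcohols, carbonyls and their redox partners, where 0.399% would be the share over all loci, 1 was called. That was the glycerol-3-phosphate dehydrogenase gene gpdh-1, which makes a glycerol precursor and rose from 13.5 to 54.3 FPKM per the authors' deposited table (adjusted p = 0.00436, log2 fold 2.01, SE 0.45). ZC443.1 had deposited values of 14.9 and 34.9 FPKM, with an unadjusted p of 0.00609 and an adjusted p of 0.504 in the authors' test. The most abundant loci of the list held the malate dehydrogenase genes mdh-1, joined with dpy-11, at 775 and 691 FPKM, and mdh-2 at 730 and 545 FPKM per the authors' deposited table.

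Short-chain dehydrogenase genes that carry other names were taken from a fixed list of 31 genes, of which 24 were measured, in 24 loci. The list also holds maoc-1, which encodes the enzyme acting before DHS-28 rather than such a dehydrogenase, and which the peroxisomal list counts too. Of the 24 loci 0 were called and 0 had an unadjusted p under 0.05 in the deposited table. The shares of all loci are 0.399% and 3.09%, so these counts do not set the list apart. Of the 24, 10 had higher and 14 had lower values in NO, and the median log2 ratio was -0.06. The most abundant, the joined loci of R119.3 and of let-767, a steroid and fatty acyl reductase gene, were listed at 470 and 402 FPKM and at 397 and 308 FPKM per that deposited table. A list of 9 loci was tied to dafachronic acids, steroid hormones of the worm, and not only to their synthesis. It gave 0 calls, beside 0.399% of all loci, with a median log2 ratio of -0.07. The most abundant genes of this list were emb-8 and din-1, at 81.2 and 75.3 FPKM and at 22.4 and 25.3 FPKM per the authors' deposited table. A list of 8 loci for retinal and fatty aldehyde handling also held other lipid genes, such as the fatty acid binding protein gene lbp-2. Its loci gave 0 calls, beside the same 0.399%, with a median log2 ratio of -0.04. lbp-2 and ads-1 led them, at 739 and 581 FPKM and at 156 and 155 FPKM per the authors' deposited table.

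The families differ in protein size and in how cleanly their loci can be read. In the Ensembl annotation the longest product had a median of 311 residues over the 29 dhs genes (244 to 436) and 523 residues over the 11 alh genes (437 to 908), and FPKM is already scaled by transcript length. In the table, 6 members, dhs-6, dhs-20, dhs-22, alh-4, alh-9 and alh-11, share a locus with other genes, and their values cannot be separated. Summed over the 35 loci of 1 gene, the members stood at 1991 FPKM in control and 1987 FPKM in NO in the deposited table, a ratio of 0.998. The dhs part of this sum had a ratio of 0.915 and the alh part one of 1.08, beside 0.947 for all loci, joined ones included. The most abundant gene of each part weighs most in its ratio. These were dhs-25, at 218 and 149 FPKM, and alh-8, at 554 and 631 FPKM. Median log2 ratios of the single-gene loci were -0.01 for dhs and -0.02 for alh, so the sums do not show the families moving apart. Tissue marker lists of 10 genes each gave 0 calls, beside 0.399% of all loci, so these counts do not set the lists apart. The marker lists had median log2 ratios of -0.15 for intestine, -0.14 for germline, 0.05 for neurons, 0.08 for body muscle, 0.16 for epidermis and 0.36 for sperm, over 8 to 10 loci each. Their part in the members' values was not tested.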

How the data were processed

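Samples were grouped by the agent label, 2 control and 2 NO. TopHat2 2.0.2, Cufflinks 2.0.5 and R 2.15.2 stand in the submitters' processing notes, without roles. The sources used here do not give the genome build or gene models, and coordinates are left out for that reason. The authors deposited 1 value per condition and locus, taken as FPKM from the column layout, with a ratio (fold change), its log2, a score (its test statistic), a raw p-value and an adjusted one, per the file headers. Replicates were combined before deposit, so no count model or limma could be run. The deposited p-value equalled the normal tail of the score, and its adjusted form matched the Benjamini-Hochberg procedure over 16562 loci. The implied SE is the log2 fold divided by the score, taken without sign because the members' scores had the opposite sign to their log2 folds. An interval is the log2 fold plus or minus the normal 95% multiple of that SE. These p-values may measure technical spread, since no label says that the samples of a group were separate cultures.

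Calls are those of the authors' test at an adjusted p of 0.05 across all genes. Log2 ratios of lists used 1 FPKM as pseudocount, which understates changes of weak genes, over loci whose mean reached 1 FPKM. Names were matched to the reference WBcel235 gene table, and protein lengths came from Ensembl release 115. Of 44 current family symbols 40 were in the table, and alh-2, alh-7, dhs-16 and sodh-2 were not analysed here. Members, lists and the naming rule were chosen with earlier results of these data known. Every member is named, and of other lists the called genes, those with an unadjusted p under 0.05 and the 2 most abundant, besides adh-5 and single genes of a member's route, chosen after their values were seen. Interval and calling code was checked on simulated data drawn with the implied SE itself. That check covers the code alone and cannot say whether the implied SE is right for these samples. Alternatives changed thresholds, pseudocount, minimum mean, centring, joined loci and name matching. Python 3.11.15, pandas 2.3.3 and scipy 1.17.1 were used.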

Additional observations from a re-analysis of the deposited data

How the results depend on the processing

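The count of called members was 0 under all 9 alternatives run for it, but most of these could not add a call, so this is no sign of stability. Looser settings were an adjusted p of 0.1, an unadjusted p under 0.05 and adjustment over only the loci whose mean reached 1 FPKM. Their outcome was already fixed by the authors' test, where the lowest unadjusted p of a member was 0.0626 and its adjusted p 0.99994. Only matching by current symbols could bring in another locus. The dhs median log2 ratio ran from -0.07 to -0.01 and that of all members from -0.12 to -0.03. The alh median ran from -0.12 to 0.011, the last value when centred within abundance bins. Without joined loci the median of other short-chain dehydrogenases turned to 0.024 and that of peroxisomal genes to 0.053. With table names alone the lipid droplet median turned to 0.41, from fewer loci. Centring on the median log2 fold of -0.04 turned dhs-28 to 0.026 and dhs-29 to 0.039. For each of these turns the cause was not tested beyond the change of loci or centre itself. No paired analysis was possible because the deposited values combine the replicates of a condition, and for the same reason no replicate could be left out and no other count model was run. Library depth is unknown, and the implied SE, from 0.28 to 1.18 among members, sets what could be detected.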

Other observations

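Protein-coding genes next to a member in the reference gene order were looked up where their locus was not that of the member. Such a locus may itself join several genes. Of 56 neighbours of this kind, 0 were called and 0 had an unadjusted p under 0.05 in the deposited table. The shares of all loci are 0.399% and 3.09%, so the count of 0 calls does not set these neighbours apart. dhs-8 lies beside cysl-2, a cysteine synthase family gene, and K10H10.4. In the authors' deposited table these stood at 56.1 and 87.96 FPKM (log2 fold 0.65, SE 0.39, unadjusted p = 0.0963) and at 18.9 and 32.4 FPKM (log2 fold 0.78, SE 0.47, unadjusted p = 0.1001), so all 3 genes of this stretch had higher values in NO and none was called. They were picked out after their values were seen. Of the 10 epidermal marker genes, the collagen genes dpy-13, rol-6 and sqt-3 had an unadjusted p under 0.05 in the deposited table. dpy-13 was listed at 29.8 and 83.0 FPKM (log2 fold 1.48, SE 0.41, adjusted p = 0.0680 in the authors' test), and rol-6 and sqt-3 at 2.55 and 7.88 FPKM and at 9.36 and 20.5 FPKM. Deposited values of the other 7 lay on both sides of their control level. col-19, by far the most abundant collagen of the list, was lower in NO, at 2294 and 1808 FPKM per the authors' deposited table (log2 fold -0.34, SE 0.27, unadjusted p = 0.210), as were nhr-23 (34.7 and 30.9 FPKM) and nhr-25 (1.21 and 1.09 FPKM). Values of elt-3, ajm-1 in a joined locus, dpy-7 in a joined locus and wrt-2 were higher, with deposited log2 folds of 0.08, 0.26, 0.75 and 0.97, and none of the 7 had an unadjusted p under 0.05.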
